A study of Syntrichia ruralis with 8 samples.

Results

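The clones described here are 60 of the 768 cDNA clones on an array made for Tortula ruralis (Syntrichia ruralis), a desiccation-tolerant moss. All are without an annotation. In every comparison of the study, all had a higher ratio of treated to hydrated signal than the array's median clone. The array held 559 clones annotated only as unknown, so the 60 were 10.7% of these. They were chosen from the measured values: a clone's log2 ratio of treated to hydrated signal, relative to the median clone of its array and averaged over the 2 arrays of a comparison, had to be at least 0.4 (1.32-fold) in all 4 comparisons. These ratios therefore describe the clones and are given without a test. The differences between the 4 comparisons were tested. They did not enter the choice, but they come from the same 8 arrays, and a choice that keeps every ratio at or above 0.4 limits them, so their counts are not independent of it.

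Gametophytes, the leafy haploid plants, were treated in 2 ways. Slow-dried plants had lost their water over 24 h above a salt solution (20 °C, relative humidity 66%). Rehydrated plants had been dried rapidly over silica gel and then rewetted for 2 h. Hydrated plants served as the reference on every array, and all material had first been brought out of dry storage by 48 h of hydration. Polysomal and total poly(A) RNA were each measured, in separate samples, so the 4 comparisons with hydrated plants were slow-dried polysomal, rehydrated polysomal, slow-dried total and rehydrated total RNA. Each comparison had 2 arrays with the dyes exchanged, from 2 RNA preparations that each pooled many plants from several clumps. The array was printed from a subtracted library and so does not represent all genes of the moss. In RNA of whole plants, less RNA per cell and fewer contributing cells cannot be told apart. The title of 1 rehydrated polysomal array (slide 85) calls it slow-dried, while its source and treatment entries say rapid-dried and rehydrated, and it was taken as rehydrated.

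Tortula ruralis tolerates the loss of nearly all cell water and resumes protein synthesis soon after rewetting. In this moss transcripts can be kept through drying, and rewetting changes which transcripts are loaded on ribosomes. Late embryogenesis abundant (LEA) proteins and dehydrins, found in many drying plant tissues, protect proteins and membranes, and catalase breaks down hydrogen peroxide. The 60 clones are annotated only as unknown, so their products and roles are not known from these data.

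The clones were mostly well measured. In the treated channel 59 or 60 of the 60 lay above background on every array, where above background means that at least 2 of the clone's 3 spots exceeded the local background by 2 of its SD. In the hydrated channel the number was between 48 and 59 on 7 arrays. On the remaining one, rehydrated total array 1, it was 19, or 31.7% of these clones against 38.3% of all clones. The 4 ribosomal protein control clones, which the labels describe as unaffected by the treatments, lay below the median clone, with a mean log2 ratio of -1.28 in slow-dried polysomal, -0.99 in rehydrated polysomal, -1.46 in slow-dried total and -1.25 in rehydrated total RNA. Relative to these control clones the 60 clones had a median log2 ratio of 2.35, 1.80, 2.82 and 2.23 in the same order, and the median of all 768 clones was 1.26, 0.99, 1.43 and 1.19. A level relative to the median clone is thus lower than one relative to the control clones. With the control clones in place of the median clone as zero, 364 unannotated clones, the 60 among them, would have passed the thresholds.

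The median ratio of the 60 clones was higher in slow-dried than in rehydrated plants in both RNA fractions. In slow-dried polysomal RNA the 60 clones ran from 0.46 (USD-179) to 2.21 (USD-560), with a median of 1.08 or 2.11-fold. In rehydrated polysomal RNA they ran from 0.40 (USD-207) to 1.54 (USD-732), with a median of 0.81 or 1.76-fold. In slow-dried total RNA the range was 0.44 (USD-570) to 2.62 (USD-34), with a median of 1.37 or 2.58-fold. In rehydrated total RNA it was 0.44 (USD-227) to 3.83 (USD-22), with a median of 0.98 or 1.97-fold. By the rule all 60 reached 0.4 in each comparison, which 29.8% of all clones did in slow-dried polysomal, 28.3% in rehydrated polysomal, 37.2% in slow-dried total and 31.9% in rehydrated total RNA. All 4 thresholds were passed by 8.72% of all clones.

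The comparison in which a clone stood highest was slow-dried total for 31 of the 60, rehydrated total for 15, slow-dried polysomal for 14, and rehydrated polysomal RNA for none. The lowest comparison was rehydrated polysomal for 23 clones, rehydrated total for 20, slow-dried polysomal for 12 and slow-dried total RNA for 5. These counts use the measured ratios, some of which are not exact, as given below for clones with dim hydrated signal. At least a log2 ratio of 1 was reached by 37 clones in slow-dried polysomal, 17 in rehydrated polysomal, 42 in slow-dried total and 30 in rehydrated total RNA. Such counts over all clones are not given here. The spread among the clones was narrowest in rehydrated polysomal RNA, with an SD of 0.26, against 0.51 in slow-dried polysomal, 0.55 in slow-dried total and 0.60 in rehydrated total RNA. The whole array was also narrowest there. On the scale of the tests below the SD over all clones was 0.65 in rehydrated polysomal RNA. It was 0.87 in slow-dried polysomal, 1.12 in slow-dried total and 0.95 in rehydrated total RNA.

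**Figure D1:**
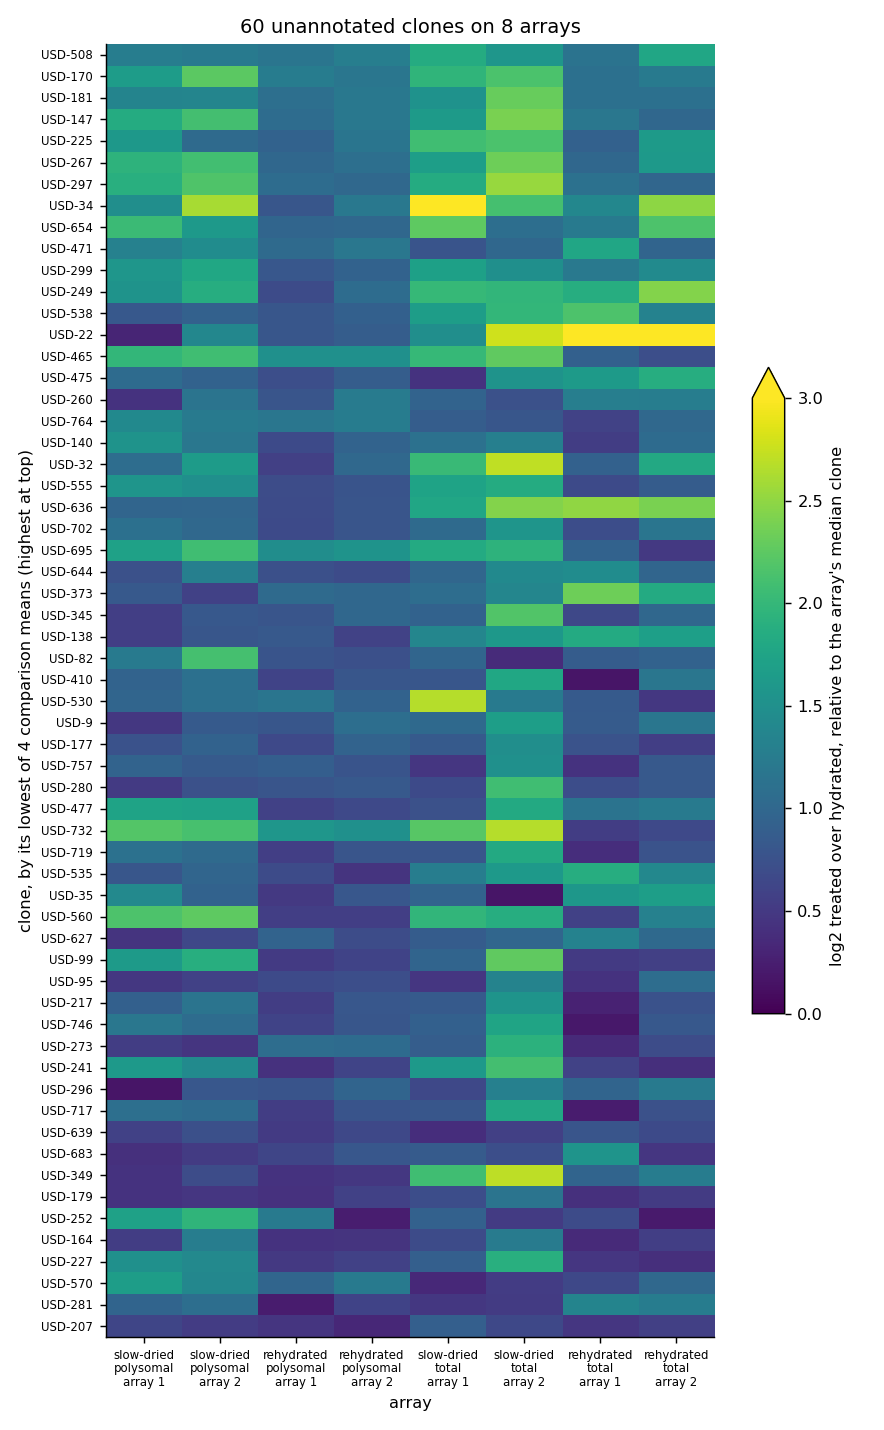
Log2 ratio of treated to hydrated signal, relative to the array's median clone (colour), of the 60 clones (1 per line) on each of the 8 arrays (columns). No clone lies at or below 0 on any array, the lowest value being 0.16 for USD-410 on rehydrated total array 1, and the 2 rehydrated polysomal arrays are the most even.

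The heatmap of the 60 clones by array shows how far single arrays bear the choice. All 60 clones were above 0 on all 8 arrays, and 44 were at or above 0.4 on all 8. Leaving out any 1 array is no further check, since the other array of its comparison then stands alone. The same 44 clones therefore passed all thresholds every time. Across the 60 clones the 2 arrays of a comparison correlated at r = 0.80 in slow-dried polysomal, 0.71 in rehydrated polysomal, 0.53 in slow-dried total and 0.74 in rehydrated total RNA. Over all 768 clones r was 0.87, 0.89, 0.77 and 0.78, where the clones cover a wider range. These are descriptions across clones of the same arrays, not tests. The median gap between the 2 arrays was 0.59 for these clones in slow-dried total RNA, the largest of the 4, against 0.19 in slow-dried polysomal, 0.14 in rehydrated polysomal and 0.34 in rehydrated total RNA.

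The threshold of 0.4 fell within a continuous range. Just inside lay USD-570 (lowest of its 4 means 0.44), USD-281 (0.42) and USD-207 (0.40). Just outside were USD-355 (0.3997), USD-703 (0.3989) and USD-624 (0.3914). The lowest mean lay between 0.4 and 0.5 for 13 of the 60 clones, and between 0.3 and 0.4 for 24 unannotated clones that were not chosen. Background correction by the normexp method with loess normalization, the scale of the tests below, left 11 of the 60 under 0.4 in at least 1 comparison, with USD-296 lowest at 0.17 in slow-dried polysomal RNA.

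Among the 209 annotated clones 7 (3.35%) passed the same thresholds. Catalase (USD-265) had the highest lowest mean of these, 0.85, with 1.35 and 1.66 on the slow-dried polysomal, 0.78 and 0.92 on the rehydrated polysomal, 1.59 and 2.40 on the slow-dried total and 2.07 and 1.83 on the rehydrated total arrays. A clone annotated as keratinocytes proline-rich protein (USD-569) had a lowest mean of 0.64. The Lea protein clone USD-161 had 0.52, the Pirin-like protein clone USD-330 had 0.49, senescence-associated protein 12 (USD-38) had 0.47 and annexin a7 (USD-715), of a family that binds membranes in the presence of calcium, had 0.45. The LTI30/XERO2 dehydrin clone (USD-107) was at the threshold, with 0.40. The 12 unannotated clones with the highest lowest mean, 0.87 or more, all exceeded catalase in this measure.

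USD-508 led these 12 clones and had similar levels in all 4 comparisons. Its log2 ratios were 1.27 and 1.23 on the slow-dried polysomal arrays, 1.17 and 1.29 on the rehydrated polysomal, 1.84 and 1.58 on the slow-dried total, and 1.15 and 1.77 on the rehydrated total arrays. No array of this clone was below 1.15, and its polysomal values of slow-dried and rehydrated plants overlapped. USD-181 had 1.35 and 1.37, 1.09 and 1.20, 1.53 and 2.31, and 1.11 and 1.11 on the same 4 pairs of arrays. It was higher on each slow-dried than on each rehydrated array within both fractions. On the scale of the tests below, the difference was 0.02 in polysomal RNA (limma, adjusted p = 0.957) and 0.63 in total RNA (limma, adjusted p = 0.0982). Neither was called.

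A group of 4 clones had nearly the same levels as each other. USD-170 stood at 1.66 and 2.25 on the slow-dried polysomal, 1.26 and 1.18 on the rehydrated polysomal, 1.96 and 2.15 on the slow-dried total, and 1.11 and 1.23 on the rehydrated total arrays. USD-147 stood at 1.85 and 2.10, 1.06 and 1.20, 1.63 and 2.40, and 1.19 and 1.00. USD-267 and USD-297 had comparison means of 2.02 and 2.03 in slow-dried polysomal, 1.05 and 1.04 in rehydrated polysomal, 2.01 and 2.19 in slow-dried total, and 1.31 and 1.05 in rehydrated total RNA. In these clones both slow-dried levels lay above both rehydrated levels, in polysomal as in total RNA. None of these differences was called in the tests below, where those of USD-170 were 0.28 in polysomal and 0.26 in total RNA. The hydrated signal of USD-170 and USD-267 was not above background on either rehydrated total array.

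USD-34 had the highest measured ratio of the 60 in slow-dried total RNA, with 3.12 and 2.12 on its 2 arrays. The same clone had 1.48 and 2.61 in slow-dried polysomal, 0.80 and 1.20 in rehydrated polysomal, and 1.39 and 2.49 in rehydrated total RNA. The 2 arrays of USD-34 lay farther apart in every comparison than those of the clones above. USD-654 had means of 1.82 in slow-dried polysomal, 0.99 in rehydrated polysomal, 1.67 in slow-dried total and 1.69 in rehydrated total RNA. USD-225 had 1.32, 1.05, 2.12 and 1.28 in the same order and was among the 3 dimmest of the 60 clones. USD-299 had 1.68, 0.88, 1.60 and 1.32. USD-249 had 1.70, 0.87, 1.99 and 2.16, with its lowest level in rehydrated polysomal RNA. USD-471 was the only one of the 12 leading clones with its lowest mean in slow-dried total RNA, 0.89, against 1.39, 1.11 and 1.37 elsewhere.

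**Figure D2:**
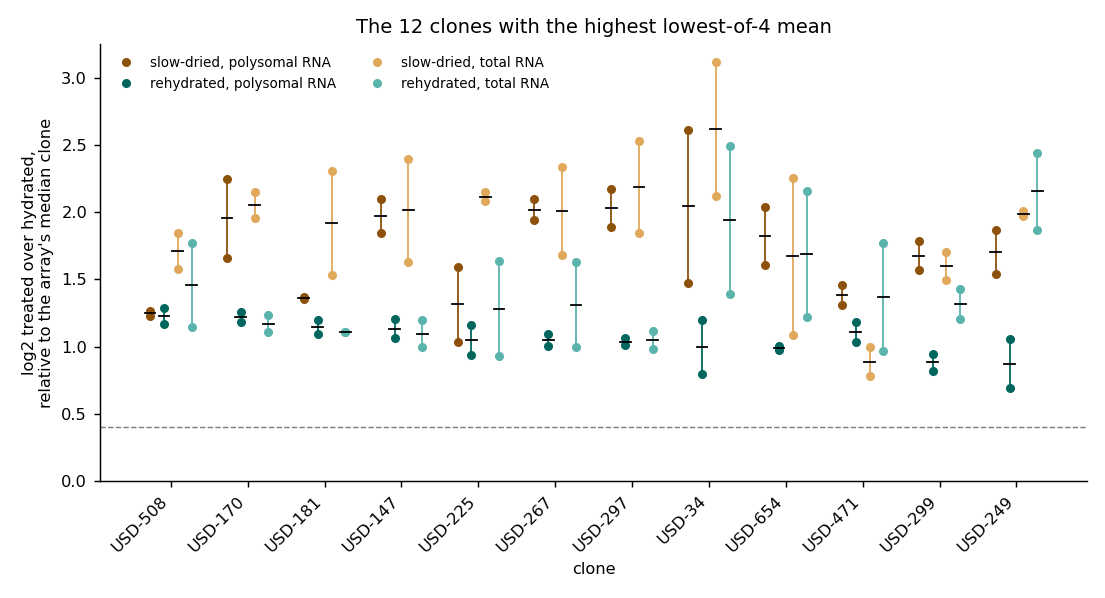
Log2 ratio of treated to hydrated signal, relative to the array's median clone, on each array (points, joined by a line per comparison) with the mean of the 2 arrays (bar) for the 12 clones whose lowest comparison mean was highest. All means lie at or above 0.87, over the dashed threshold of 0.4, and in 11 of the 12 clones the slow-dried total mean exceeds 1.

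Where the hydrated signal was not above background on either array, the measured ratio of a clone is not exact and may be too high. Only a lower bound can then be given. Bounds are on the normexp and loess scale of the tests below, not on that of the ratios above, so a bound can exceed the ratio given there. Hydrated signal was this dim for 1 clone in slow-dried polysomal, 1 in rehydrated polysomal, 4 in slow-dried total and 10 in rehydrated total RNA. In rehydrated total RNA it was above background on only 1 of the 2 arrays for 31 further clones, and on both for 19. The ratios of those 31 rest in part on dim signal, also in the differences below, and no bound is given for them. In slow-dried total RNA the signal from slow-dried plants was at least 4.64-fold higher for USD-34, at least 4.49-fold for USD-249, at least 3.60-fold for USD-225 and at least 2.81-fold for USD-530, whose treated signal was above background on 1 of the 2 arrays. In rehydrated total RNA it was at least 7.69-fold higher in rehydrated plants for USD-22, at least 3.03-fold for USD-249 and at least 2.54-fold for USD-34. For USD-140, a dim clone, it was at least 2.35-fold higher in slow-dried polysomal RNA. The other bounds in rehydrated total RNA were 2.08-fold for USD-267, 1.42-fold for USD-32, 1.19-fold for USD-170 and 1.05-fold for USD-225 and USD-140. No bound above 1 could be given there for USD-530 and USD-241. For USD-170, USD-225, USD-140, USD-530 and USD-241 passing the threshold of 1.32-fold in this comparison thus rests on hydrated signal not above background. At the other end, 19 of the 60 clones were above background in both channels on all 8 arrays, and their lowest means ran from 0.44 to 0.80 (USD-764). USD-719, USD-757 and USD-177 had the brightest mean signal and USD-530, USD-225 and USD-140 the dimmest.

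The first question among the treatments was whether a clone's level in polysomal RNA matched that in total RNA. In slow-dried plants 8 of the 60 clones were lower in polysomal than in total RNA and 1 was higher, each relative to hydrated plants. Over all 768 clones 29.3% were called, with 15.5% lower and 13.8% higher, so the share of lower clones among the 60, 13.3%, was close to the array's and that of higher clones, 1.67%, was below it. The median difference was -0.28 for the 60 clones and -0.09 for all clones. In rehydrated plants 12 of the 60 (20.0%) were lower and none was higher, where 15.5% and 14.5% of all clones were, 29.9% in either direction. The median difference was -0.30 for the 60 clones and -0.06 for all. Before adjustment, p was under 0.05 for 2 higher and 14 lower clones in slow-dried plants, and for 3 higher and 19 lower clones in rehydrated plants. These differences were contrasts of 1 limma fit over all arrays, on normexp and loess values, with two-sided p-values and Benjamini-Hochberg adjustment over all 768 clones.

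USD-22 showed the widest gap between the fractions. Its array values were 0.32 and 1.38 in slow-dried polysomal and 1.48 and 2.78 in slow-dried total RNA, and 0.80 and 0.88 in rehydrated polysomal and 3.46 and 4.19 in rehydrated total RNA. The polysomal values lay below the total values in both treatments, without overlap. The fitted log2 ratio was 0.83 in polysomal and 2.73 in total RNA of slow-dried plants, a difference of -1.90 ± 0.47 (SE, limma, adjusted p = 0.0264). In rehydrated plants it was 0.82 in polysomal and 3.77 in total RNA, a difference of -2.94 ± 0.47 (limma, adjusted p = 0.00753). On the rehydrated total arrays this clone's signal above background was 7489 and 13500 scanner units from rehydrated plants, against 211 and 375 from hydrated plants, where neither hydrated signal was above background. With the total RNA ratio of rehydrated plants at its bound of 2.94 on the log2 scale, the difference was -2.12, so its fitted size and SE are not exact. On the rehydrated polysomal arrays it was 2161 and 8474 units from rehydrated and 1927 and 2932 from hydrated plants. Without slow-dried total replicate 2 the slow-dried difference was -1.11 and was not called.

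USD-636 and USD-349 were also lower in polysomal RNA after both treatments. USD-636 had 0.98 and 1.00 in slow-dried polysomal against 1.77 and 2.44 in slow-dried total RNA, and 0.68 and 0.79 in rehydrated polysomal against 2.51 and 2.39 in rehydrated total RNA. Its difference was -1.03 ± 0.22 after slow drying (limma, adjusted p = 0.0188) and -1.73 ± 0.22 after rehydration (limma, adjusted p = 0.00540). Polysomal and total values of this clone did not overlap in either treatment. USD-349 had 0.44 and 0.70 in slow-dried polysomal against 2.08 and 2.70 in slow-dried total RNA, a difference of -1.67 ± 0.29 (limma, adjusted p = 0.00905). In rehydrated plants it had 0.43 and 0.49 in polysomal and 0.97 and 1.26 in total RNA, a difference of -1.34 ± 0.29 (limma, adjusted p = 0.0185), which was -0.66 and not called with floored subtraction in place of normexp and loess.

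Further clones named for a difference in slow-dried plants were USD-538, USD-627 and USD-252. USD-538 had means of 0.88 in slow-dried polysomal and 1.83 in slow-dried total RNA, with a fitted difference of -1.16 ± 0.25 (limma, adjusted p = 0.0172). USD-627 had 0.55 in polysomal and 0.94 in total RNA, with a fitted difference of -1.05 ± 0.20 (limma, adjusted p = 0.0127). That difference was -0.68 with normexp and no loess and -0.39 with floored subtraction, both not called. USD-252 was the 1 clone higher in polysomal RNA, with 1.72 and 1.97 in slow-dried polysomal against 0.93 and 0.52 in slow-dried total RNA, a difference of 0.96 ± 0.28 (limma, adjusted p = 0.0458). Without slow-dried polysomal replicate 2 it was 0.56 and not called. The remaining 3 lower clones, named after their values were seen, were USD-32, USD-138 and USD-345.

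In rehydrated plants USD-249 had 0.69 and 1.06 in polysomal against 1.87 and 2.44 in total RNA, a difference of -1.73 ± 0.40 (limma, adjusted p = 0.0221). Its hydrated signal was not above background on either rehydrated total array, and the difference was -0.75 with the total RNA ratio at its bound. Without rehydrated total replicate 2 the difference was -1.07 and not called. USD-475 had 0.72 and 0.88 in polysomal against 1.64 and 1.87 in total RNA, a difference of -1.14 ± 0.34 (limma, adjusted p = 0.0475). Both clones had non-overlapping fractions. The other 7 clones lower in polysomal RNA of rehydrated plants differed by -1.13 to -0.71.

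Across both treatments 6 clones (10.0%, against 8.72% of all clones) were called lower in polysomal RNA each time, namely USD-22, USD-32, USD-138, USD-349, USD-538 and USD-636. They made up 75% of the lower clones of slow-dried plants and 50% of those of rehydrated plants, and 14 clones (23.3%, against 22.3% of all clones) were lower in at least 1 treatment. Both shares were near those of the array. For USD-32 the hydrated signal was not above background on either rehydrated total array, and with its total RNA ratio at the bound the difference was 0.17, so its call in rehydrated plants rests on signal below background. The 2 differences come from 1 fit with a common estimate of the spread. Leaving out an array of either treatment leaves the difference of the other treatment unchanged in size. It can change the calls of that other treatment only through the estimate of the spread. The counts depended on single arrays: without either slow-dried polysomal array no clone of the 60 was called in slow-dried plants, without either rehydrated polysomal array 3 were, and without slow-dried total replicate 2 only 1 was. In rehydrated plants none was called without either rehydrated polysomal array, and none with slide 85 taken as slow-dried, as its title says. On the authors' deposited ratios the same model called none of the 60 in either treatment, and 25 of 768 clones in slow-dried and none in rehydrated plants. With each array shifted to the control clones, 3 clones were lower in slow-dried and 10 in rehydrated plants and none was higher in either.

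**Figure D3:**
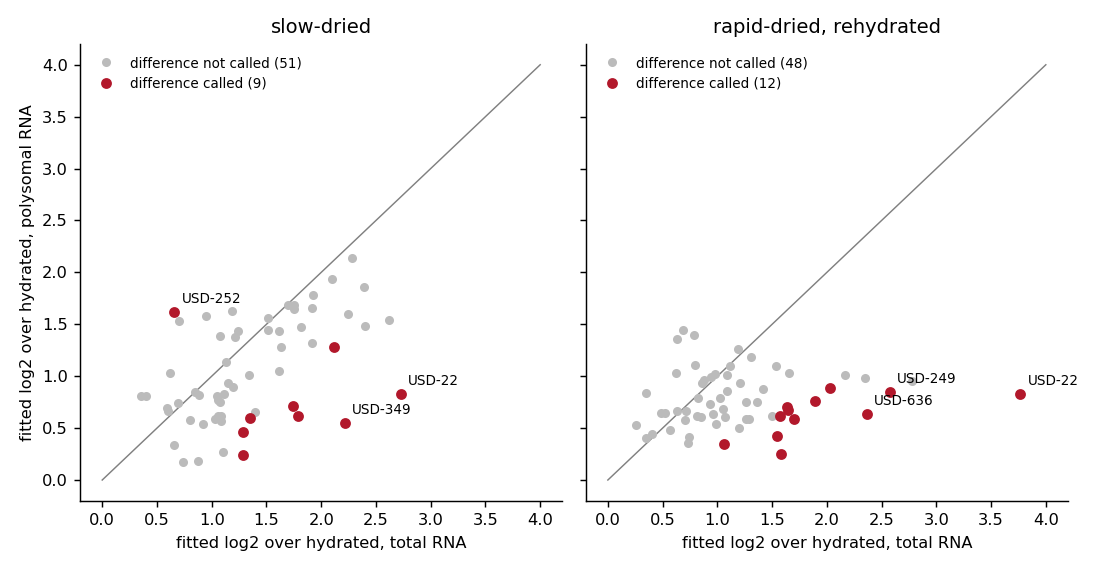
Fitted log2 ratio over hydrated plants in polysomal RNA (vertical axis) against total RNA (horizontal axis) for the 60 clones, in slow-dried (left) and rehydrated plants (right), with the line of equal values. Clones called for the difference (red, 9 on the left and 12 on the right) lie below the line, apart from USD-252 on the left, and USD-22 lies farthest to the right in both panels.

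The second question was whether slow-dried and rehydrated plants differed from each other. In total RNA 4 of the 60 clones (6.67%) were higher in slow-dried plants and 1 (1.67%) was lower, where 6.38% of all 768 clones were higher and 11.3% lower, 17.7% in either direction. The share of higher clones was thus near that of the array. The median difference was 0.25 for the 60 clones and -0.03 for all clones. Before adjustment p was under 0.05 for 11 higher and 5 lower clones.

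USD-732 showed the largest of these differences. Its ratios were 2.22 and 2.66 in slow-dried total against 0.55 and 0.66 in rehydrated total RNA. Both slow-dried arrays lay well above both rehydrated ones, and the difference was 1.70 ± 0.23 (SE, limma, adjusted p = 0.00846). The same clone was the highest of the 60 in rehydrated polysomal RNA, at 1.58 and 1.51, and had 2.20 and 2.13 in slow-dried polysomal RNA. USD-465 had 2.01 and 2.27 in slow-dried total against 0.92 and 0.72 in rehydrated total RNA, a difference of 1.14 ± 0.20 (limma, adjusted p = 0.0157). Its polysomal values were 1.98 and 2.08 in slow-dried and 1.51 and 1.51 in rehydrated plants.

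USD-695 followed the same pattern as USD-732 and USD-465, high in 3 comparisons and low in rehydrated total RNA. It had 1.83 and 1.94 in slow-dried total against 0.94 and 0.50 in rehydrated total RNA, a difference of 0.88 ± 0.22 (limma, adjusted p = 0.0426). On the authors' deposited ratios this difference was 0.11 and was not called. USD-555 had 1.74 and 1.84 in slow-dried total against 0.68 and 0.88 in rehydrated total RNA, a difference of 1.00 ± 0.22 (limma, adjusted p = 0.0288). USD-373 was the 1 clone that was lower in slow-dried plants, with 1.07 and 1.37 in slow-dried total against 2.34 and 1.84 in rehydrated total RNA, a difference of -0.97 ± 0.23 (limma, adjusted p = 0.0343). With each array shifted to the control clones, 5 clones were higher and none was lower.

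In polysomal RNA no clone of the 60 was called between slow-dried and rehydrated plants by limma, where 0.26% of all clones were higher and 3.65% lower, 3.91% in either direction. Before adjustment p was under 0.05 for 12 higher and 2 lower clones, and 0 or 1 of the 60 was called under the other settings tried. The smallest adjusted p was 0.104 (limma), for USD-297, with a fitted log2 ratio of 1.69 in slow-dried and 0.86 in rehydrated polysomal RNA. The largest difference was that of USD-560, 1.44 ± 0.38 (limma, adjusted p = 0.105), whose arrays read 2.16 and 2.25 in slow-dried against 0.56 and 0.56 in rehydrated polysomal RNA. Its array values did not overlap, yet the difference did not pass the threshold. The median difference was 0.25 for the 60 clones and 0.03 for all clones.

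**Figure D4:**
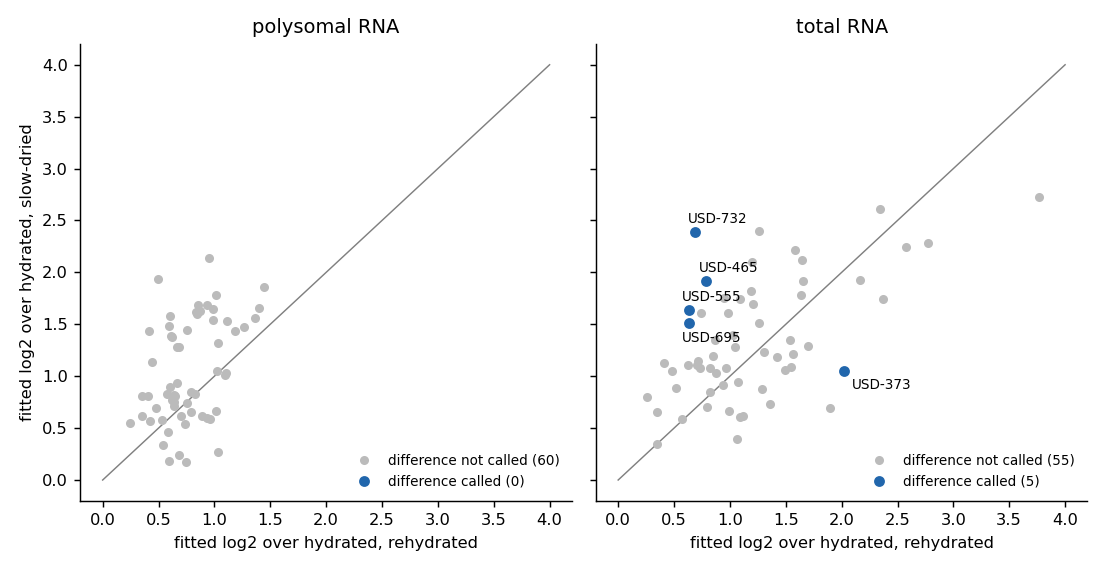
Fitted log2 ratio over hydrated plants in slow-dried (vertical axis) against rehydrated plants (horizontal axis) for the 60 clones, in polysomal (left) and total RNA (right), with the line of equal values. No difference was called in polysomal RNA and 5 in total RNA (blue), 4 above the line and USD-373 below it.

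The total RNA counts also changed when single arrays were left out. Polysomal arrays do not enter these differences, and USD-732, for example, stayed at 1.7 without any of them. Leaving out a polysomal array changed the calls only through the estimate of the spread. Leaving out 1 array at a time gave between 1 and 7 called clones in place of 5, with 1 clone without either rehydrated polysomal array, 2 without either slow-dried polysomal array, and 3 without slow-dried total replicate 2 or rehydrated total replicate 1. USD-732 alone stayed past the threshold in each of these. On the authors' deposited ratios none of the 60 and none of the 768 clones was called. With floored subtraction 11 clones and with normexp alone 12 clones were called. Over the 4 differences together 19 of the 60 clones (31.7%) were called at least once and 41 in none, where 51.0% of all clones were called at least once.

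Each comparison held both dye orientations. The dye term of the fit was called for none of the 60 and none of the 768 clones by limma, with a smallest adjusted p of 0.791. Before adjustment p was under 0.05 for 2 of the 60 and 43 of the 768 clones. Its estimates for the 60 clones ran from -0.31 (USD-252) to 0.88 (USD-22), with a median of 0.07 against 0.01 for all clones.

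Some of the clones resembled each other closely over all 8 arrays. Likeness was measured as the mean absolute gap between the ratios of 2 clones over the 8 arrays, a description of the arrays that chose the clones, and the clones in this paragraph were picked after their values were seen. USD-719 and USD-717 had a gap of 0.036, the smallest of all 294528 pairs on the array, whose median was 1.00. Together with USD-217, USD-410 and USD-746 they formed 5 clones in which all 10 pairs lay between 0.036 and 0.12. On slow-dried polysomal array 1 these 5 clones read 0.92 to 1.19, on rehydrated polysomal array 1 0.54 to 0.61, on slow-dried total array 2 1.56 to 1.83 and on rehydrated total array 1 0.16 to 0.39. Each of the 5 thus stood highest on slow-dried total array 2 and lowest on rehydrated total array 1.

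The 4 leading clones USD-147, USD-170, USD-267 and USD-297 had gaps of 0.094 to 0.22 among themselves. For scale, the 14 pairs of clones that carry the same annotation had gaps of 0.11 to 1.41 with a median of 0.68, and the 1770 pairs among the 60 clones had a median of 0.55. Whether clones of like profile carry the same transcript was not tested, as clone sequences were not used here.

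**Figure D5:**
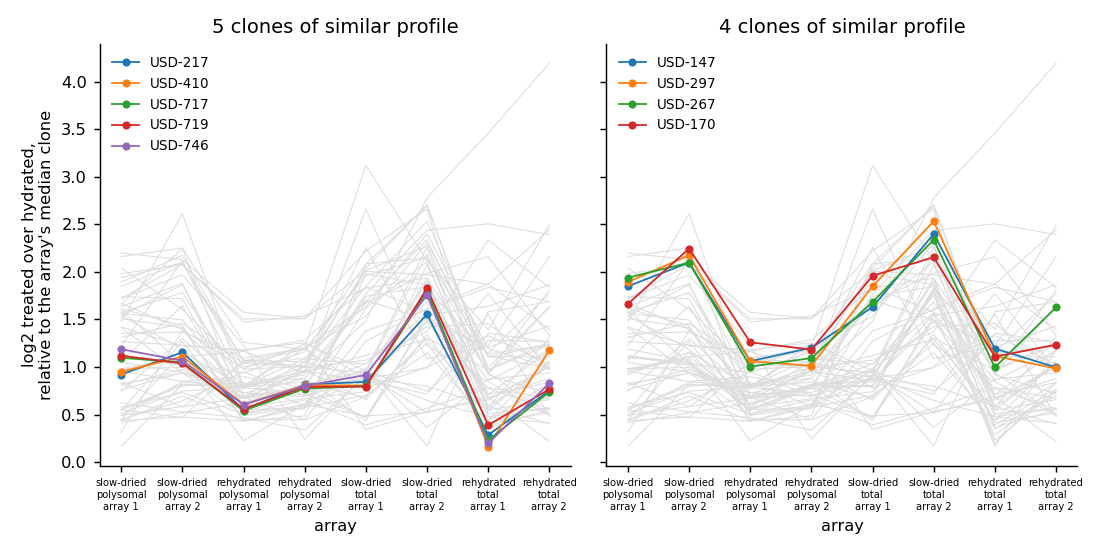
Log2 ratio of treated to hydrated signal, relative to the array's median clone (vertical axis), on each of the 8 arrays (horizontal axis), for 5 (left) and 4 clones (right) of similar profile in colour, with the other clones of the 60 in grey. The 5 clones on the left run within 0.036 to 0.12 of each other on average and the 4 on the right within 0.094 to 0.22.

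The same measure was set against annotated clones. It uses the ratios that chose the 60, so annotated clones past the same thresholds, and others of the 60, are favoured as nearest. The nearest annotated clone was catalase for 16 of the 60, the LTI30/XERO2 dehydrin for 13, the keratinocytes proline-rich protein for 11, and the Pirin-like protein for 5. Gaps to catalase ran from 0.29 (USD-249) to 0.70 (USD-22), where the median pair among the 60 had 0.55. The Lea protein USD-161 and annexin a7 were the nearest for 4 each. Closest were USD-639 to annexin a7, with a mean gap of 0.078, USD-345 and USD-280 to the Lea protein USD-161, with 0.099 and 0.12, and USD-99 to the dehydrin, with 0.13. The first of these pairs was flat over the arrays, at 0.65, 0.58, 0.48 and 0.73 for USD-639 and 0.62, 0.58, 0.45 and 0.64 for annexin a7 in slow-dried polysomal, rehydrated polysomal, slow-dried total and rehydrated total RNA. USD-345 and the Lea protein both stood highest in slow-dried total RNA, at 1.56 and 1.55. USD-99 and the dehydrin were both high in slow-dried and low in rehydrated plants, at 1.76 and 1.60 in slow-dried polysomal and 0.56 and 0.55 in rehydrated polysomal RNA. For 46 of the 60 clones the nearest clone of any kind was another of the 60. USD-22 was the farthest from any annotated clone, with a gap of 0.70.

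The same thresholds were also set against annotated groups, beside the 8.72% of all clones and 3.35% of annotated clones that passed. Of 16 clones annotated as LEA or other desiccation proteins 2 passed all 4, with a median lowest mean of -0.57. Among 12 antioxidant and redox clones 1 passed, catalase, with a median of -0.75. None of 22 ribosomal protein clones (median -1.51), of 2 photosynthesis clones (-3.66) or of 2 early light-inducible clones (-0.28) passed. The median lowest mean was -0.50 over unannotated, -0.88 over annotated and -0.62 over all clones.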

How the data were processed

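The deposited scanner files give spot and local background intensity per channel in arbitrary units without normalization, per the file headers, with a spot flag of another kind (0 to 3). A deposited table holds the authors' ratio of treated over hydrated per clone and array, scaled so that the median of the 4 control clones is about 1, as its values show. The scanner, the image software and the flag's meaning were not given in the sources used here. No spot mean of the 60 clones reached the scanner maximum. Replicate 1 is the array with treated RNA in Cy3 and replicate 2 that with Cy5. The numbers pair no arrays between groups.

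To choose the clones, signal mean minus background median of each channel was floored at 50, the log2 ratio was taken per spot, and the median of 3 spots minus the array's median clone was averaged over 2 arrays. For the tests, the deposited intensities were corrected by normexp (offset 50) and global loess (span 0.3, 4 iterations), log2 ratios of spots were averaged, and limma 3.58.1 in R 4.3.3 was fitted over the 8 arrays with 4 comparisons and a dye term (3 residual and 6.41 total degrees of freedom). Calls needed a Benjamini-Hochberg adjusted p under 0.05 over 768 clones. P-values measure the spread between the 2 preparations of a comparison, pooled over the 4 comparisons and moderated over all clones. The design text gives the preparations as separate. The script was tested on simulated data, for slow-dried minus rehydrated in total RNA. It called 93% of differences of log2 size 2 and 59% of those of size 1, and 2.56% of its calls were false. Differences of size 1 were thus often missed in the simulation. Tables and figures were made with pandas 2.3.3, numpy 2.4.6 and matplotlib 3.10.9 in Python 3.11.15.

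Clones and lists were chosen with earlier results of these data known. Named were the 12 clones with the highest lowest mean, the 3 highest per comparison, up to 5 per direction of each difference, the 3 brightest and 3 dimmest, the 3 just inside and just outside the threshold, the annotated clones past it and the control clones. Lists were annotation searches for LEA and desiccation, ribosomal, antioxidant and redox, photosynthesis and early light-inducible clones. A bound sets the treated mean against the lowest level above background in the hydrated channel. Alternatives were other floors, spot averages, background corrections, scales, the authors' ratios, no dye term, dim clones left out, slide 85 as slow-dried, and each array left out. Leaving out spots with a flag above 0 was chosen after seeing the data. The files name the control clones as S3, S14, S16 and L17, where the design text names another set. The number of arrays limits the precision.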

Additional observations from a re-analysis of the deposited data

Results flagged for a closer look

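Each difference below between treatments or between RNA fractions passed the limma test of the difference itself (adjusted p under 0.05). Each was recomputed under 15 alternative settings, all of which kept its direction. Some settings cannot change the size of a difference, such as dropping the dye term, dim clones or an array that does not enter it. Under those its direction was fixed and only its call could change. In total RNA, slow-dried minus rehydrated, USD-732 differed by 1.70 and was called under 14 of the 15, with values from 1.43 to 2.00. USD-465 differed by 1.14 and was called under 9, USD-555 by 1.00 under 6, USD-695 by 0.88 under 5, and USD-373 by -0.97 under 4. Among polysomal minus total differences in slow-dried plants, USD-349 differed by -1.67 and was called under 11 settings, and USD-22 by -1.90 under 10. USD-538 at -1.16, USD-627 at -1.05 and USD-636 at -1.03 were called under 8 each, and USD-252 at 0.96 under 6. For polysomal minus total in rehydrated plants, USD-22 differed by -2.94 and USD-636 by -1.73, both called under 11 settings. USD-249 at -1.73 was called under 10, USD-349 at -1.34 under 9 and USD-475 at -1.14 under 6. In rehydrated total RNA the hydrated signal of USD-22 and USD-249 was not above background, and with the total RNA ratio at its bound their differences were -2.12 and -0.75. The authors' deposited ratios ended the call of all 16 differences. Their values were -5.33 for USD-22, -3.55 for USD-249 and -2.16 for USD-349 in rehydrated plants, each larger in size than above. Other differences were smaller on these ratios, among them slow-dried minus rehydrated in total RNA for USD-695 (0.11) and USD-465 (0.87).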

How the results depend on the processing

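Counts are clones of the 60 called. Slow-dried against rehydrated in total RNA gave 5, and 11 with floored subtraction, 12 with normexp and no loess, 0 on the authors' deposited ratios, and 1 with slide 85 as slow-dried. In polysomal RNA it gave 0, and 1 with floored subtraction or with normexp and no loess. Polysomal against total RNA gave 9 in slow-dried plants, and 3 on the control scale, 0 on the authors' ratios and 5 with slide 85 as slow-dried. In rehydrated plants it gave 12, and 0 on the authors' ratios, 19 with dim clones left out (594 of 768 kept) and 0 with slide 85 as slow-dried. Leaving out each array in turn gave 1 to 7, 0 to 1, 0 to 11 and 0 to 14 in the same order, where the lone array left in a comparison is assumed to vary like the others. The dye term called 0 throughout. The choice of clones gave 60 with a floor of 10, 64 with a floor of 200, 69 with the mean of spots, 59 with normexp and loess (49 of them among the 60), 59 on the authors' ratios minus the array median (47 shared), 55 without spots of a flag above 0, 59 to 65 with 1 array left out (53 to 60 shared), and 364 with the control clones subtracted in place of the array median (60 shared). Other alternatives stayed within 1.5 times of these counts, and the 16 named differences kept their direction in all 240 recomputations, 136 of them past the threshold. The causes were not tested. Direction was fixed in advance in those recomputations that cannot change the size of a difference, such as leaving out an array that does not enter it. Signal over background limits rehydrated total RNA most, where 10 of the 60 clones had no hydrated signal above background on either array. A further 31 had it on only 1 array. No paired analysis was possible because replicate numbers follow the dye and pair no arrays between groups.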

Other observations

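The 60 clones were spread over the array. Of the 4 equal sets of clones that shared printing blocks, by their order in the scanner files, they took 17, 18, 9 and 16. For 11 of the 60 (18.3%) no EST had been submitted, against 118 of the 559 unannotated clones (21.1%). Their mean log2 signal over both channels had a median of 11.93, against 11.28 for all clones, and ran from 9.12 (USD-530) to 13.48 (USD-719). Spots with a flag above 0 were 0 to 12.8% of the spots of these clones on an array and 3.73 to 14.5% of all spots.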
